A study of Mus musculus with 2 samples.

Results

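Sox1, Sox3, Zic2, Zic5, Pax6, Pou3f1, Gbx2 and Hes5 code for transcription factors that mark neural progenitors or prepare cells for a neural fate. They were followed here as 8 of the 34650 gene names on a mouse expression array, in 2 kinds of epiblast stem cell culture. Members were the probes for mouse transcripts whose gene name in both scanner files was one of these symbols, which gave 12 probes and 13 spots. The measured quantity was spot fluorescence on 1 EpiSC array and 1 ELA-EpiSC array.

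The source of both cultures was E14Tg2A, a line of mouse embryonic stem (ES) cells of strain 129/Ola grown with LIF and serum. Both received Activin A at 20 ng/mL and FGF2 at 12 ng/mL, in a chemically defined medium with N2 and B27 supplements and no vitamin A. EpiSC were made by giving these factors to ES cells, and ELA-EpiSC by giving them to epiblast-like aggregates (ELA), the clusters that ES cells form in the first days of neural differentiation once LIF and serum are gone. The pair asks how alike primed cells are after either route. Each RNA was a pool of 3 sets of experiments from this single line, so culture variation was averaged inside a pool and no difference below has a replicate. The groups follow the sample titles, although for EpiSC the source field gives undifferentiated cells and an Argonaute immunoprecipitate. For ELA-EpiSC it gives undifferentiated cells and total RNA.

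Neural fate begins in the epiblast, the pluripotent layer of the embryo after implantation. SOXB1 factors such as Sox1, Sox2 and Sox3 bind DNA through an HMG box and keep cells in an undifferentiated neural state, ZIC zinc finger factors act from the epiblast to the neural plate and the neural crest, and the POU factor Pou3f1, also known as Oct6, promotes the step from epiblast to neural progenitor. Pax6 marks radial glia and the eye, Gbx2 sets the border between midbrain and hindbrain, and Hes5 is a Notch target that holds back neurogenesis. Several of them are not restricted to neural cells: Pou3f1, Sox3, Zic2 and Zic5 are also transcribed in the primed epiblast, and Gbx2 in naive ES cells.

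Levels are given as log2 of normalized signal and differences as log2 ELA-EpiSC minus EpiSC. Detection of a probe required the flag for well above background on at least 0.5 of its spots. Genes were counted as higher in one culture past an absolute difference of 1, which is a doubling, where their mean log2 level was at least 7.5. A gene above 7.5 on 1 array alone can reach this level, so counts within a list depend in part on this filter. The error given with a difference is the SD of a spot difference at that level, taken from 312 probes printed 10 times on each array. It holds spot noise alone, without that of labelling or culture. Over those 312 probes this SD was 0.10. The arrays detected 65.9% and 65.0% of 55681 probes, in EpiSC and ELA-EpiSC respectively, with 0 saturated spots on both and a median spot signal of 71.7 and 79.1 intensity units over local backgrounds of 26 and 25.

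Of the 8 factors, 7 were detected on both arrays, Pax6 stayed at background on both, and 6 reached the minimum level. Zic2, Pou3f1 and Zic5 were higher in ELA-EpiSC past 1, beside 4.54% of all 16649 genes at this level. In the other direction 0 of the 6 passed 1, beside 4.46% of all genes, and Hes5 lay just short of it. Sox1 and Sox3 lay close to 0, and Gbx2 was dim on both arrays. The median difference of the 6 was 0.68 and their mean 0.58, beside a median of 0.00 and an SD of 0.65 over all genes at the minimum level. None of these counts has a test, since 1 array stood for each culture. Scaling to spike-in RNA adds 0.54 to every difference given here, so that negative differences and list medians of smaller size turn positive under it. In bulk RNA a larger number of cells that transcribe a gene and more RNA in each such cell cannot be told apart.

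**Figure D1:**
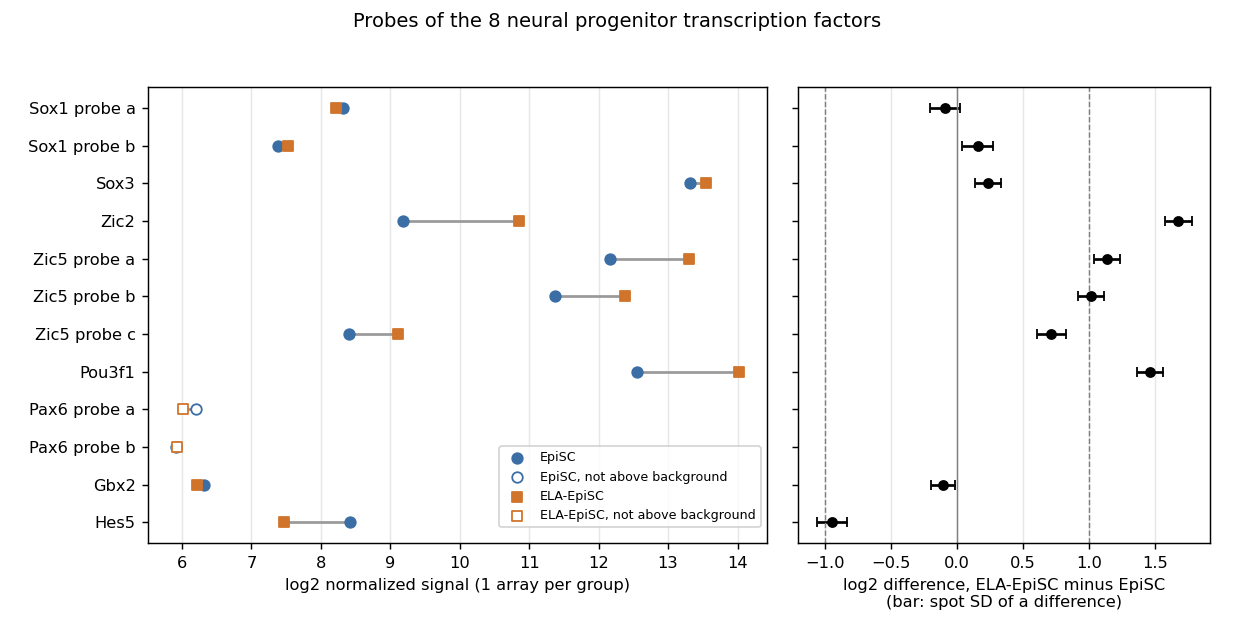
Level of each of the 12 probes on the 2 arrays (left, log2 normalized signal, circles EpiSC and squares ELA-EpiSC, open where not well above background) and the difference between them (right, bars the spot SD of a difference, dashed lines at -1 and 1). The probes of Zic2, Zic5 and Pou3f1 lie to the right, from 0.72 to 1.68, and the Hes5 probe lies at -0.95.

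Zic2 and Zic5 are neighbours on chromosome 14 in opposite orientation, and loss of Zic2 disturbs closure of the neural tube and division of the forebrain. The Zic2 probe lay on the plus strand at chr14:122879296-122879355 (mm9), from base 2712 of the transcript named in the array file. The 3 Zic5 probes lay on the minus strand at chr14:122856019-122856078, chr14:122857786-122857845 and chr14:122858394-122858453, and are called a, b and c here in that order. Exons and untranslated regions were not analysed here, since no mm9 annotation was used. The stretches of 30 bases below show what each spot of the pair read, with the polyadenylation signal AATAAA in capitals where a probe held it. That was so in 2 of the 12 member probes, beside 10.1% of all probes of 60 bases.
Zic2: cgttagcttttttccgaaataacacccttc
Zic5 a: tgatggacaaatgtAATAAAggtattcttc
Zic5 b: atcctggactgtacctgtatccaaaagtct
Zic5 c: ccgggtctaattagccctatttattcagta

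The Zic2 spot read 497 intensity units in EpiSC against 2020 in ELA-EpiSC, over local backgrounds of 28 and 25.5. On the normalized scale Zic2 stood at 9.18 in EpiSC against 10.85 in ELA-EpiSC. The difference of 1.68 (spot SD 0.10), or 3.20-fold, was the largest among the members. It was exceeded upwards by 245 genes, 1.47% of those tested. Zic2 stayed past 1 under each of 13 other ways of processing the arrays, between 1.65 and 2.21. Among these, the mean of all probes and detection on both arrays could not move it, since its 1 probe was detected on both. The same holds for Pou3f1, Sox3, Gbx2 and Hes5, each with 1 probe.

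All 3 Zic5 probes were higher in ELA-EpiSC, by unequal amounts. Probe a read 4136 units in EpiSC against 10966 in ELA-EpiSC, which gave 12.17 and 13.30 on the log2 scale and a difference of 1.14 (spot SD 0.10), or 2.20-fold. Probe b read 2366 and 5872 units, with a difference of 1.02 (spot SD 0.10). Probe c, which lies nearest to Zic2, read 281 and 582 units, with a difference of 0.72 (spot SD 0.11). So a and b differed from each other by about the spot SD, and c lay below both by more than that. Zic5 took its value from probe a, the brightest. Its difference passed 1 in 11 of the 13 alternatives, and lay at 0.96 with the mean of the 3 probes and just under 1.00 with the processed signal of the scanner files. A probe named for an expressed sequence tag, BB247860, overlapped probe a on the same strand and read 11.49 in EpiSC against 12.49 in ELA-EpiSC, a difference of 1.00, so it is a second reading of nearly the same bases and not a further gene.

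Among their relatives, Zic1, a neural plate border and cerebellar gene, stood at 9.91 in EpiSC against 10.40 in ELA-EpiSC. The difference was 0.49, with 0.07 at its other probe. Zic4 was not detected on either array.

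The genome around the pair was read next, since 20.8 kb separated the nearest Zic2 and Zic5 probes. Between them lay 2610035F20Rik, at 6.37 in EpiSC against 6.71 in ELA-EpiSC, a difference of 0.34 below the minimum level. Clybl, a citrate lyase gene 78.0 kb from the Zic2 probe, stood at 10.75 and 10.85, a difference of 0.10. AK047219, 27.8 kb from Zic2, lay near background at 6.21 and 6.18. Within 100 kb the differences past 1 were thus those of Zic2, of Zic5 probes a and b and of BB247860, the tag that overlaps Zic5.

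Pou3f1, the POU factor that precedes Sox1 in models of neural commitment, was the other member past 1. Its single probe lay on the plus strand at chr4:124337692-124337751 (mm9), from base 2802 of its transcript. The first 30 bases are printed to show what the spot read.
Pou3f1: ggagcttcccccttcaccatttcttcatct

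The Pou3f1 spot read 5473 units in EpiSC against 17635 in ELA-EpiSC, over backgrounds of 28 and 25. These gave 12.56 and 14.02 on the log2 scale and a difference of 1.46 (spot SD 0.10), or 2.75-fold. A higher difference was seen in 357 genes, 2.14% of those tested. The difference passed 1 in all 13 alternatives, from 1.39 with the processed signal to 2.00 with spike-in scaling. It rested on 1 spot per array.

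The remaining POU class III genes, Pou3f2, Pou3f3 and Pou3f4, which act later in neural precursors and neurons, were not detected on either array. Near Pou3f1, Utp11l, 18.3 kb away, differed by 0.08, and 2 probes of Fhl3 by 0.28 and 0.26. Sf3a3, a splicing factor gene 71.8 kb away, differed by 0.28. A pair of long intergenic transcripts had their nearest probe 3.41 kb from that of Pou3f1, and their probes detected on both arrays differed by -0.29 to 0.17. Of the probes detected within 100 kb of it, Pou3f1 was the one past 1.

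**Figure D2:**
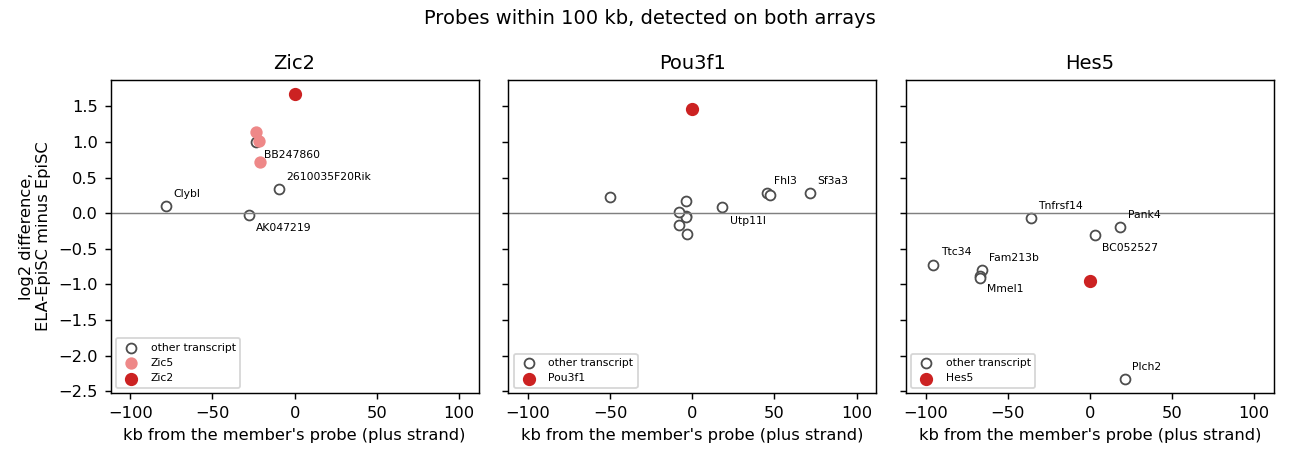
Differences of probes within 100 kb of Zic2, Pou3f1 and Hes5 (filled; open symbols other transcripts) against the distance in kb from the member's probe, for probes detected on both arrays. The open symbols around Pou3f1 lie between -0.29 and 0.28, and around Hes5 the probe of Plch2 lies lowest, at -2.33.

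The SOXB1 members gave small differences. Sox3, an X-linked gene of the epiblast and neural plate, was read by 1 probe on the minus strand at chrX:58144564-58144623 (mm9). Its spot read 9343 units in EpiSC against 12866 in ELA-EpiSC, and the normalized levels were 13.32 and 13.55. The difference of 0.23 (spot SD 0.10) was 2.38 times the spot SD and kept its sign in all 13 alternatives, from 0.13 to 0.77. Differences higher than this were found in 28.2% of all genes tested.

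Sox1, the earliest gene that is confined to neuroectoderm in the mouse embryo, had 2 probes 1.93 kb apart on chromosome 8. They lay on the plus strand at chr8:12397503-12397562 and chr8:12399496-12399555 (mm9) and are called a and b. Probe a held 73.3% G and C and probe b 43.3%. Both stretches are shown because the 2 probes differed in sign, with AATAAA in capitals in probe b.
Sox1 a: cgtcaacggcacggtgcccctgacgcacat
Sox1 b: ttctgatgaggtAATAAAagaacacccctc

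Probe a read 262 units in EpiSC against 298 in ELA-EpiSC, and after normalization stood at 8.31 and 8.23. The difference of -0.09 was smaller than its spot SD of 0.11. Probe b read 123 and 168 units, stood at 7.38 and 7.53, and gave 0.16 with a spot SD of 0.12. Median scaling, spike-in scaling and the mean of both probes turned the sign of the Sox1 value, which ranged from -0.19 to 0.45 over the 13 alternatives. No direction was therefore detectable for Sox1. It was well above background on both arrays.

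Of the other SOXB genes, Sox2, which ES cells, epiblast and neural progenitors share, stood at 10.48 in EpiSC against 10.21 in ELA-EpiSC, a difference of -0.27. Sox21, which promotes neuronal differentiation, stood at 8.90 and 8.68, a difference of -0.22. Sox14 was detected below the minimum level, at 7.29 and 7.07. The 4 SOXB genes at the minimum level, Sox1 and Sox3 among them, had a median difference of -0.15. In either direction 0 of them passed 1.

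Hes5, the Notch target, went the other way from the ZIC and POU members. Its probe lay on the plus strand at chr4:154336347-154336406 (mm9), and its first 30 bases are printed for the same reason as above.
Hes5: acgatgatccttaaaggattcctttgtatg

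The Hes5 spot read 286 units in EpiSC against 163 in ELA-EpiSC, over backgrounds of 28 and 31. The levels were 8.42 and 7.47, and the difference of -0.95 (spot SD 0.12) made EpiSC 1.93-fold higher. A lower difference was found in 4.88% of the tested genes. The sign was negative in all 13 alternatives. The size moved with the processing: it passed -1 in 6 of them, reached -1.32 with the processed signal, and was -0.41 with spike-in scaling.

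Of the HES and HEY relatives at the minimum level, Hey1, also a Notch target, stood at 11.71 in EpiSC against 10.50 in ELA-EpiSC, a difference of -1.22. Hes6, which opposes Hes1 in neurogenesis, differed by -0.42. Hes1, the general Notch effector, differed by 0.61 and stood at 11.04 and 11.66, and Hes7, the oscillator of the segmentation clock, differed by 0.30. Hes2 and Hey2 were detected below the minimum level, Heyl was detected in EpiSC only, and Hes3 on neither array. The 5 genes at the minimum level, Hes5 among them, had a median of -0.42, with 1 higher in EpiSC past 1 and 0 higher in ELA-EpiSC. Without Hes5 the median of the other 4 was -0.06. The signs within the family were thus mixed, with Hes1 and Hes7 above 0 and Hes5, Hes6 and Hey1 below.

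Probes around Hes5 also leaned to EpiSC. Plch2, a phospholipase C gene 21.1 kb away, stood at 10.54 in EpiSC against 8.21 in ELA-EpiSC, a difference of -2.33. Its other probe was near background, at 6.21 in EpiSC against an undetected 5.94 in ELA-EpiSC, a difference of -0.27. The probes of Mmel1, which overlap and so read nearly the same bases, differed by -0.88 and -0.91. Fam213b differed by -0.80 and Ttc34 by -0.72. Pank4, 18.5 kb away, differed by -0.19, and Tnfrsf14 by -0.06. The 8 probes of other genes that were detected on both arrays within 100 kb were all below 0. Over all genes at the minimum level 50.2% lay above 0. The overlapping Mmel1 probes are not separate readings, and spike-in scaling turns the values of BC052527, Pank4 and Tnfrsf14 positive.

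The RefSeq promoter table (GRCm38.p6, 250 bases before to 50 after a start site) held 5 of the 8 members, in 6 of its 32851 windows. Sox3, Zic2 and Pou3f1 had no entry. The windows were searched on both strands for the RBPJ core GTGGGAA of Notch targets, the POU octamer ATGCAAAT, a ZIC core CCTGCTG, a homeodomain core TAATTA and a SOX core ACAATG, none of which is contained in another. The Hes5 window held the RBPJ core at base -226 on the reverse strand and at -83 on the forward strand, a motif found in 6.38% of all windows. It also held the SOX core on the reverse strand at -211 and -172 (12.6% of all windows). The octamer occurred in the Sox1 window, 19 bases into the transcript (1.74% of all windows). The ZIC and homeodomain cores, in 10.5% and 5.29% of all windows, were not found in those of the members. The matches are printed in capitals with their surroundings, on the plus strand at chr4:154960686-154960715, chr4:154960829-154960858 and chr8:12395526-12395555 (GRCm38.p6), as descriptions of these letters and not as sites of binding.
Hes5 at -226: gggcgagcgcgTTCCCACagcccggacatt
Hes5 at -83: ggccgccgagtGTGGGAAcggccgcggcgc
Sox1 at 19: gccagcgcgccATGCAAATcaccgccgccg

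Gbx2 and Pax6, the 2 patterning genes, were at or near the floor. The Gbx2 probe, on the minus strand at chr1:91825013-91825072 (mm9), read 49.4 units in EpiSC over a background of 29 and 43.0 in ELA-EpiSC over 26. Both spots were flagged as well above background. The levels of 6.32 and 6.21 lay below the minimum of 7.5, and the difference of -0.11 (spot SD 0.09) ranged from -0.70 with the processed signal to 0.43 with spike-in scaling, the 1 alternative with the opposite sign.

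Pax6 had 2 probes on the plus strand of chromosome 2, at 105536454 to 105536513 with 2 spots and at 105524098 to 105524949 with 1 spot, the latter a span longer than the probe itself. The 3 spots read 39.2, 40.2 and 27.6 units in EpiSC and 32.3, 29.3 and 29.7 in ELA-EpiSC, over backgrounds of 22 to 27. None was well above background, so no difference is given. At this signal Pax6 was not detectable in either culture.

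Relatives of these genes covered the other end of the range. Otx2, which opposes Gbx2 at the border of midbrain and hindbrain and also drives priming of the epiblast, stood at 15.86 in both cultures, a difference of 0.00. Gbx1 was detected in ELA-EpiSC only, at 6.62 against an undetected 6.12 in EpiSC. That is a difference of 0.50, with 0.05 at its other probe. Otx1 was detected on neither array. Of the 9 PAX genes, 6 were detected on at least 1 array and 0 reached the minimum level: Pax2, Pax3, Pax7, Pax8 and Pax9 were detected on both arrays and Pax1 in ELA-EpiSC only. Their levels ran from 6.18 to 7.21.

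**Figure D3:**
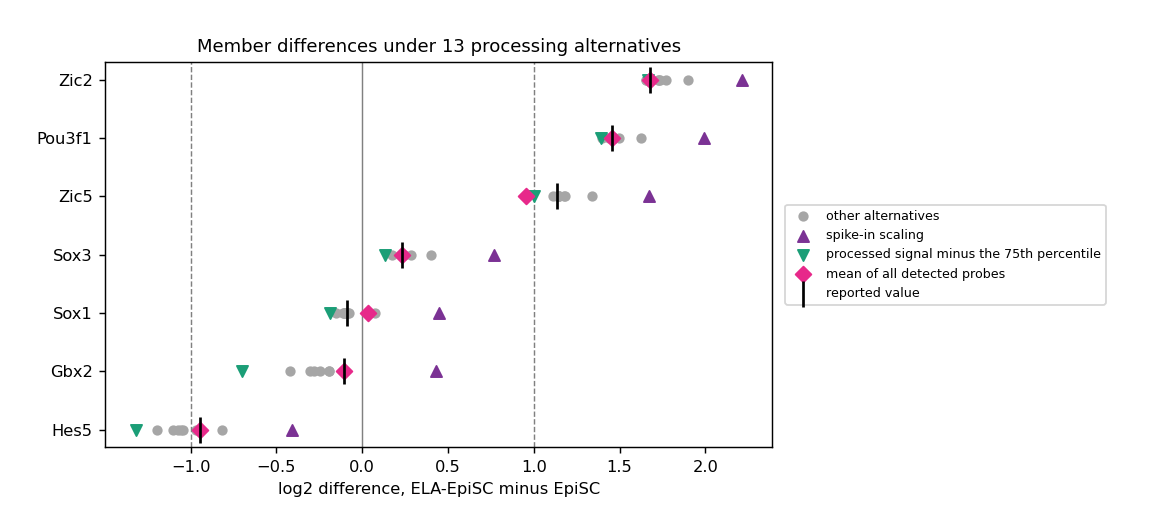
Difference of each detected member (log2, ELA-EpiSC minus EpiSC) as reported (black tick) and under 13 processing alternatives (symbols), with dashed lines at -1 and 1. Zic2 and Pou3f1 lie past 1 throughout, Zic5 touches the line, Sox1 straddles 0, and Hes5 spreads from -1.32 to -0.41.

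The labelled cell type was set against marker lists. All 9 markers of the pluripotent epiblast were detected on both arrays and reached the minimum level, among them Pou5f1 (Oct4) at 14.27 in EpiSC against 14.46 in ELA-EpiSC, Nanog at 13.41 and 13.73 and Fgf5 at 15.19 and 15.34. Their median difference was 0.00, and by the brightest probe Dppa4 alone passed 1, at -1.05. The detected Dppa4 probes ran from -1.32 to -0.27, and those of Nanog from -0.31 to 0.32. Dnmt3b differed by -0.84 at its brightest probe, and its probes ran from -1.11 to -0.84. Of 8 neural progenitor markers, 3 (Sox1, Pax6 and Hes5) were themselves members. Pax6 and Olig2 were not detected on either array and 6 markers reached the minimum level, with a median of 0.10. Without the members the median was 0.44 over 4 genes. Nes (nestin), an intermediate filament gene of neural progenitors, was the 1 marker of this list past 1, at 12.26 and 14.37, a difference of 2.11. The summed normalized signal of the 6 detected markers was 7212 in EpiSC against 23666 in ELA-EpiSC, a gap that Nes made up nearly alone: the other 5 summed to 2306 and 2500. Sox9 differed by 0.66, Msi1 by 0.22 (-0.26 at its other probe) and Fabp7 by -0.01. The neural progenitor list was drawn up without Zic2, Zic5 and Pou3f1, so its lack of overlap with the 3 members past 1 is no result. The part of such cells in the member differences was not tested.

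Genes that act beside the members at the onset of neural fate gave mixed values. Of 10 genes of early neural commitment, all at the minimum level, Zeb2, a repressor of SMAD signalling, passed 1 at 1.21. It stood at 7.47 in EpiSC against 8.67 in ELA-EpiSC, and its detected probes ran from 0.37 to 1.21. Zeb2 thus reached the minimum level only through ELA-EpiSC. Zfp521, a driver of neural commitment, differed by -0.67 and Gmnn (geminin) by -0.61. The median of the list was 0.09, and 5 of the 10 lay above 0.

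Anterior and posterior neural genes were then compared with the members. Of 14 anterior genes 5 reached the minimum level, 0 were higher in ELA-EpiSC past 1 and 2 were higher in EpiSC. Rax, the eye field gene, stood at 12.87 in EpiSC against 6.91 in ELA-EpiSC, a difference of -5.96, and Hesx1, a gene of the anterior epiblast and forebrain, at 12.47 and 8.09, a difference of -4.38. Rax reached the minimum level only through its EpiSC value, so the anterior count rests in part on this filter. The anterior median was -0.29. Among posterior genes, Egr2 (Krox20), a hindbrain gene, stood at 8.41 and 9.77 and differed by 1.36, whereas Irx3 stood at 12.02 and 10.76 and differed by -1.27.

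Markers of other lineages also differed between the arrays. Endoderm genes were higher in EpiSC past 1 in 3 of 7, namely Hnf4a (-5.12), Gata4 (-2.39) and Ttr, which was detected in EpiSC only and higher there by at least 3.42 on the log2 scale, and 0 of 7 were higher in ELA-EpiSC. Ttr reached the minimum level only through its EpiSC value, so this count rests in part on the filter. The summed signal of the 8 endoderm genes was 106202 in EpiSC against 80347 in ELA-EpiSC. Of 7 primitive streak and mesoderm genes at the minimum level, T (2.48) and Mixl1 (1.97) were higher in ELA-EpiSC past 1. Mesp1 (-1.66) and Evx1 (-1.02) were higher in EpiSC past 1. Mixl1 reached the minimum level only through ELA-EpiSC, and Mesp1 only through EpiSC. The summed signal of the detected genes of this list was 33546 in EpiSC against 54426 in ELA-EpiSC. The median difference was -0.93 over the endoderm genes at the minimum level. It was 0.32 over those of the primitive streak and mesoderm, where signs were mixed and 4 of 7 lay above 0. The part of these lists in the member differences was not tested.

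**Figure D4:**
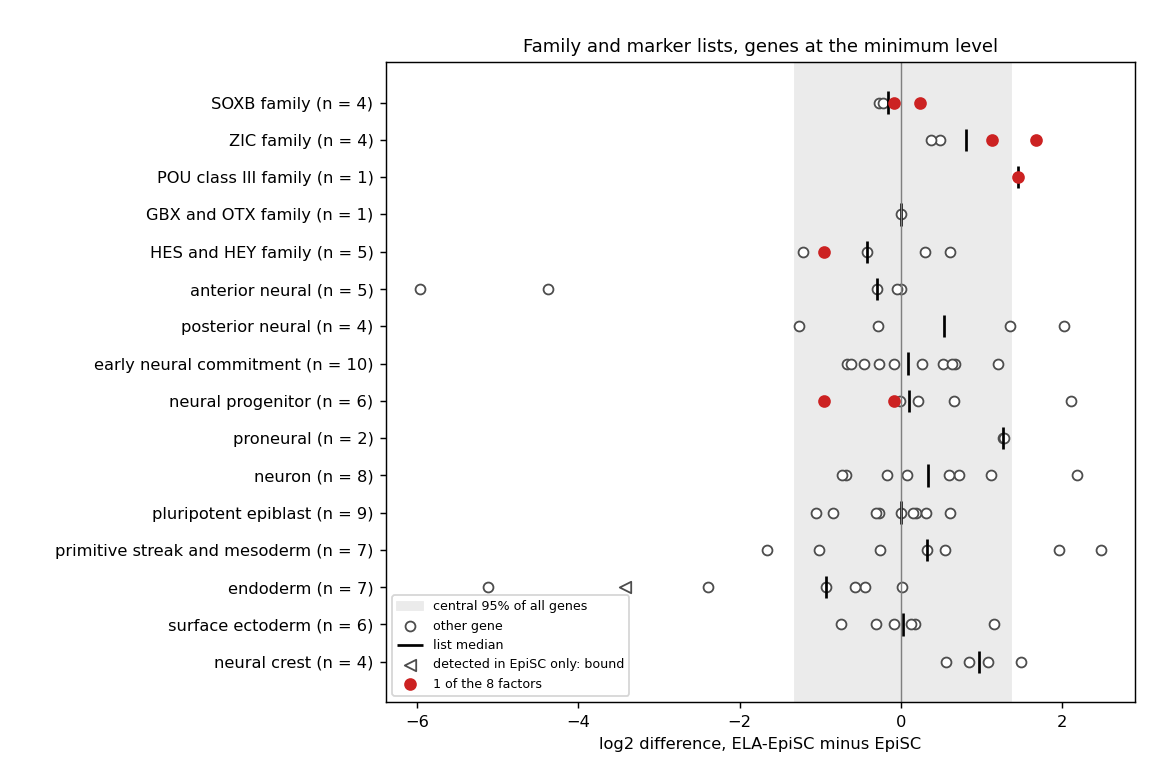
Differences of the genes at the minimum level in 16 lists of relatives and markers (rows; circles single genes, filled where 1 of the 8 factors, a triangle where the value is a bound, black ticks list medians), with the central 95% of all 16649 genes shaded from -1.32 to 1.37. Zic2 and Pou3f1 lie to the right of the shaded range, and Rax, Hesx1 and Hnf4a lie far to its left.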

How the data were processed

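RNA of EpiSC and ELA-EpiSC was hybridized to 1 one-colour array each. The deposited scanner tables give linear intensity per spot and, as other values, quality flags, which per the file headers the authors made with Feature Extraction 10.7.3.1 (the submitters' processing notes name 9.1) from a slide with mm9 probe coordinates. The authors also deposited log2 values after background correction and quantile normalization in limma; the kind of correction is not given in the sources used here. The labels give 50 ng of labelled RNA.

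Mean signal and median background were corrected by normexp with an offset of 50 in limma 3.58.1 (R 4.3.3), control spots and 158 and 117 flagged spots were removed, the arrays were quantile normalized, and spots of a probe were averaged. Quantile normalization hides a shift shared by all genes, and the offset compresses differences of dim genes. A gene took its brightest detected probe. A gene detected on 1 array was set against the higher of its dim value and the lowest detected signal there (5.89 in EpiSC, 6.11 in ELA-EpiSC), giving a bound. Spot SDs came from the 50 replicated probes nearest in level. With 1 array per group no test was run. The steps were tested on simulated data. The number of arrays limits the precision. Members, thresholds and lists were chosen with earlier results of these data known. Named were all members and probes, every detected relative in a family list, and in other lists genes past 1 and defining genes. Alternatives varied the background correction, scaling, probe rule, detection, minimum level and threshold. Genes carry the names in the scanner tables. Promoters were those of RefSeq on GRCm38.p6, read with pandas 2.3.3. Some genes of these lists are not reported here.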

Additional observations from a re-analysis of the deposited data

How the results depend on the processing

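Zic2, Pou3f1 and Zic5 made up the count of 3 higher in ELA-EpiSC in most alternatives. The count was 2, without Zic5, with the processed signal and with the mean of all probes, and 0 at a threshold of 2.5. The count higher in EpiSC changed from 0 to 1, by Hes5, with normexp offsets of 0 and 16, no background correction, 75th percentile scaling, the deposited log2 values and a threshold of 1.5-fold. The median over the members was 1.00 with the processed signal, where Hes5 fell below the minimum level, 0.87 with median scaling, 1.22 with spike-in scaling, 0.23 with no minimum level, which adds Gbx2, and 1.30 with a minimum of 9, which leaves 4 members. Scaling also moved all genes. The median over them was 0.54 with spike-in scaling (14.8% of genes higher in ELA-EpiSC past 1 and 1.82% higher in EpiSC). It was 0.15 with median scaling (6.69% and 3.1%). Spike-in scaling sets the mean of 8 detected spike-in probes equal, and before it the single probes differed by -0.86 to -0.26. Cyclic loess, the median pixel signal, keeping outlier spots and detection on both arrays kept both counts and moved the median by less than the spot SD. No replicate could be left out. No paired analysis was possible because each culture had 1 array. Signal over background limits Gbx2, Pax6, Sox1 and Hes5, whose spots read under 300 units.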

Other observations

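Genes downstream of the members were read as values. Of 10 proneural genes, which start neuronal differentiation, 2 reached the minimum level and both were higher in ELA-EpiSC past 1. Insm1, a zinc finger gene of newborn neurons, stood at 9.41 in EpiSC against 10.67 in ELA-EpiSC, a difference of 1.27. Bhlhe22 stood at 6.98 and 8.25, a difference of 1.28, and reached the minimum level only through its ELA-EpiSC value. Neurog1 and Neurog3 lay below the minimum level on both arrays. Of 8 neuronal genes at the minimum level, Nefl, a neurofilament gene, stood at 13.06 and 15.24, a difference of 2.18, Nefm differed by 1.12 and Tubb3 by 0.72. Elavl3 (-0.68) and Rbfox3 (-0.73), both RNA-binding proteins of neurons, had negative differences. The detected Rbfox3 probes ran from -0.73 to 0.03. The list had 2 genes higher in ELA-EpiSC past 1, 0 higher in EpiSC and a median of 0.34.

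The neural crest is a tissue in which ZIC genes also act. Of its 4 genes at the minimum level, Snai2 differed by 1.49, Ets1 by 1.08, Foxd3 by 0.85 and Sox10 by 0.56, with a median of 0.97. Snai2 (7.19 in EpiSC against 8.68 in ELA-EpiSC) and Sox10 (7.29 and 7.85) reached this level only through ELA-EpiSC. The median thus rests in part on this filter. Tfap2b was not detected on either array, and Pax3 lay below the minimum level at 7.13 in EpiSC against 6.72 in ELA-EpiSC. Of 6 surface ectoderm genes at the minimum level, Tfap2c passed 1, at 1.16, and the median was 0.02.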
